A study of Mus musculus with 60 samples.

Results

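The interleukin 1 family and the inflammasome were followed in mouse lung through 10 genes. They were the cytokines Il1a, Il1b, Il18 and Il33, the receptor antagonist Il1rn, the decoy receptor Il1r2, the IL-33 receptor Il1rl1, and the inflammasome genes Nlrp3, Casp1 and Pycard. Members were chosen by gene symbol in the annotation of the array's probe sets. Of the 10 genes, 9 had a probe set under their symbol, out of 18193 genes measured on the arrays, and Il1rl1 is not analysed here. Where a gene had several probe sets, the one with the highest mean over the 60 arrays was used.

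Male Balb/c mice had breathed an aerosol of superparamagnetic iron oxide (SPIO) nanoparticles nose-only for 4 h, or humidified filtered air with helium and oxygen as sham controls. The labels of the exposed mice give a total SPIO mass of 365 µg, which the study calculated as the inhaled mass. The right diaphragmatic lobe was taken at 0, 6, 24, 48, 96 and 168 h after exposure from 5 mice per treatment and time, each mouse with its own array. In both treatments, mice killed at 96 h had spent time in a plethysmograph, and those killed at 168 h had been fed a liquid diet in metabolism cages. The ages of the mice are not given in the sources used here. The arrays measured mRNA in whole lobe, so neither the cytokine proteins nor their cleavage was measured, and fewer cells of a type cannot be told apart from less RNA per cell.

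IL-1α and IL-1β are early signals of tissue injury that act on a shared receptor and lead to the production of neutrophil-attracting chemokines. The precursors of IL-1β and IL-18 are cut to their active forms by caspase-1, which is activated on a complex of a sensor such as NLRP3 with the adaptor ASC, the product of Pycard. IL-33 is stored in the nucleus of barrier cells, in mouse lung largely of alveolar type 2 cells, and is released on damage to act on type 2 lymphoid cells, mast cells and regulatory T cells. IL-1R2 binds IL-1 without signalling, and the antagonist encoded by Il1rn occupies the signalling receptor without activating it.

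The starts of Il1a, Il1b and Il1rn lie on chromosome 2 and those of Casp1 and Il18 on chromosome 9. For the 4 genes with a difference past the threshold, the 250 bases before the annotated start are shown, since 3 of these genes were higher at the same time and Il33 was lower. Sequences are from RefSeq, on build GRCm38.p6, and read 5′ to 3′ on the gene's strand. Capitals mark matches to the PU.1 site GAGGAAG, the AP-1 site TGANTCA, the C/EBP site TTGCNNAA and the NF-kB consensus on both strands, and to the TATA box TATAAA on the gene's strand, with no overlap between the matches shown.

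Il1r2, chr1:40085843-40086092, plus strand: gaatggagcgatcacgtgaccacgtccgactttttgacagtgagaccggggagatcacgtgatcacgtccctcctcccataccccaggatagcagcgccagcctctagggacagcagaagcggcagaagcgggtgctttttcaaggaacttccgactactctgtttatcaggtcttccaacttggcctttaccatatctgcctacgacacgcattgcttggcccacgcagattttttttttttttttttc
Casp1, chr9:5298267-5298516, plus strand: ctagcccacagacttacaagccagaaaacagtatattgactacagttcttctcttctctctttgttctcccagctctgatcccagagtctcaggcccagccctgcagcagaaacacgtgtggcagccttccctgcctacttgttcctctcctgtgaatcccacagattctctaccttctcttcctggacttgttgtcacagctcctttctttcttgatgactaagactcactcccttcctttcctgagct
Pycard, chr7:127993868-127994117, minus strand: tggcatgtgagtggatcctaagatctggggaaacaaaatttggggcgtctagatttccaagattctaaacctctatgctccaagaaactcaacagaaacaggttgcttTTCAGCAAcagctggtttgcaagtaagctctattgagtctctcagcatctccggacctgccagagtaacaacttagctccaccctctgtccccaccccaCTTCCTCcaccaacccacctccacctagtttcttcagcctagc
Il33, upstream start, chr19:29924863-29925112, plus strand: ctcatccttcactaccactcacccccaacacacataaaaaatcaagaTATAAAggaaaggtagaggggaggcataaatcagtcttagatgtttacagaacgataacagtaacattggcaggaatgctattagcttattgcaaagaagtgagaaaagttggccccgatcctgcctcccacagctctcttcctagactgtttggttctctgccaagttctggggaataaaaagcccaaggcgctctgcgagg
Il33, downstream start, chr19:29945540-29945789, plus strand: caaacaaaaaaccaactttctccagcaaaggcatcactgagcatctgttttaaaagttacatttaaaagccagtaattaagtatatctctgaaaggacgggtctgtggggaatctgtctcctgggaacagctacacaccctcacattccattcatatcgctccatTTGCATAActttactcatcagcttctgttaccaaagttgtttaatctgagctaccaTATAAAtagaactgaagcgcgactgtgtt

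The Pycard window held 1 PU.1 match and 1 C/EBP match, both on the opposite strand. The windows of Il33 each held the letters TATAAA, 203 to 198 bases before the upstream start and 29 to 24 before the downstream one. The downstream window also held a C/EBP match, whereas none of the motifs was found in the windows of Il1r2 and Casp1. Of 32851 mouse promoter windows of this length, 7.25% held the NF-kB consensus, 10.6% the PU.1 site, 6.75% the AP-1 site, 9.56% the C/EBP site and 7.59% the TATA box. Over the 15 windows of the 10 genes, these counts were 1, 3, 2, 3 and 4. These are matches of letters, and binding was not measured.

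Expression is given as log2 values after robust multi-array averaging (RMA), in which a difference of 1 is a 2-fold change. Array medians lay between 5.53 and 5.64, and interquartile ranges between 3.70 and 4.18. These ranges were uneven, in array order 3.85, 4.03, 3.76, 3.90 and 3.72 in 24 h sham mice. In 24 h exposed mice they were 4.06, 4.04, 3.90, 3.99 and 3.89. At 48 h they were 3.86, 4.08, 3.77, 4.11 and 3.70 in sham mice. The 48 h exposed mice had 4.11, 3.81, 4.15, 4.08 and 4.00. Quantile normalization of the arrays again is among the alternatives given below. Array 1 of the 0 h sham group stood apart, with Alb, the gene of the plasma protein albumin, at 14.02 against 5.27 to 11.35 on the other arrays. The same array went against its label of a male mouse, with Xist, an RNA of the inactive X chromosome, at 11.94 against 5.16 to 6.02. Array 3 of the 24 h exposed group had a mean of Y-linked genes of 5.60 against 6.77 to 7.97. The results that touch these groups were also computed without both arrays.

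Of the 54 comparisons of a gene between SPIO and sham mice of the same time, 4 passed an adjusted p under 0.05 (limma, adjusted over all 18193 genes). At 24 h, Il1r2, Casp1 and Pycard were higher in the exposed mice, 3 of the 9 genes, beside 20.3% of all genes called higher at that time and 23.9% called in either direction. At 48 h, Il33 was lower, 1 of 9, beside 1.89% of all genes called lower, 10.7% higher and 12.5% in either direction. No member passed at 0, 6, 96 or 168 h, when 3.67, 1.17, 1.41 and 2.19% of all genes did. At an unadjusted p under 0.05, the counts at these 4 times were 3, 1, 1 and 0. In the order of the 6 times, the median difference of the 9 genes was -0.02, -0.08, 0.23, 0.02, 0.21 and -0.10. Over all genes it was 0.03, 0.03, 0.09, 0.04, 0.06 and 0.01. At 168 h all 9 differences were below 0, none of them past the threshold.

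**Figure D1:**
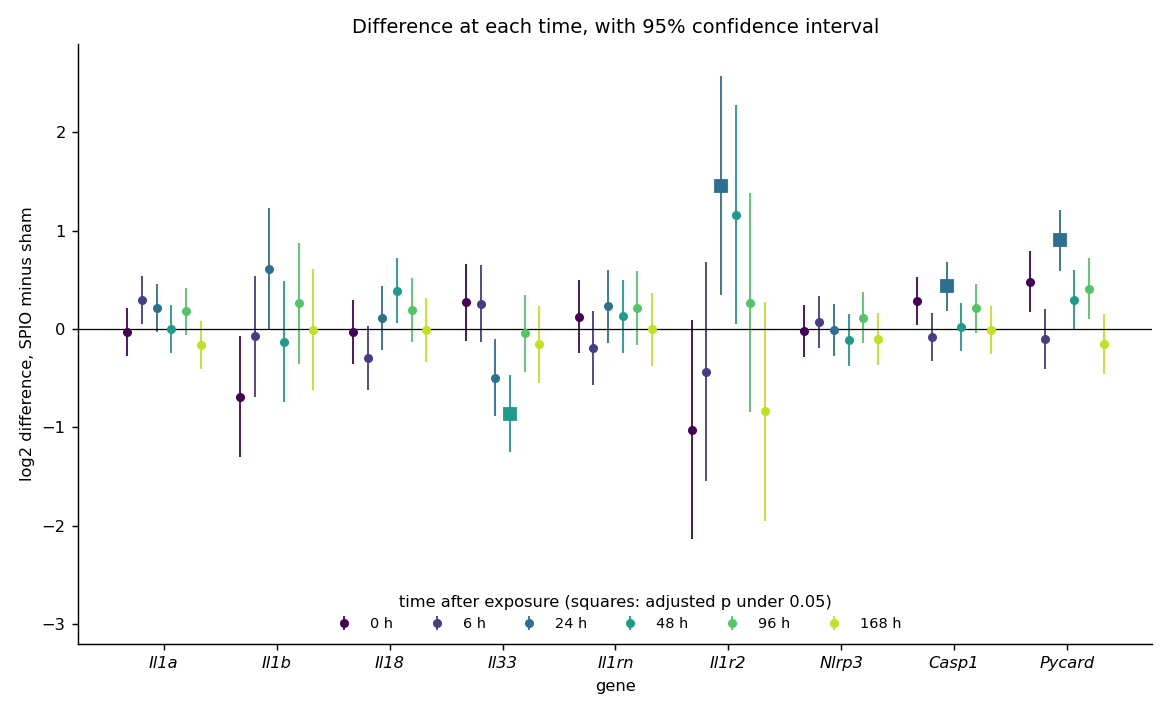
Log2 difference between exposed and sham mice (y axis) of each gene (x axis) at 6 times (colours), with its 95% confidence interval, 5 mice per group. Squares mark an adjusted p under 0.05, which are Il1r2 (1.46), Casp1 (0.43) and Pycard (0.90) at 24 h and Il33 (-0.86) at 48 h.

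IL-33 gave the clearest difference among the cytokines. At 48 h the Il33 values of the exposed mice were 9.83, 9.38, 9.86, 9.50 and 9.26, and those of the sham mice 10.38, 10.49, 10.11, 10.60 and 10.54. Every exposed mouse was below every sham mouse. The difference was -0.86 on the log2 scale (SE 0.19, 95% confidence interval -1.25 to -0.47, n = 5 per group, adjusted p = 0.0024, limma), or 1.81-fold lower. The groups of 7.68% of all genes did not overlap at 48 h, and among the 9 genes Il18 and Il33 were in that state. Without any 1 of the 10 arrays, and under the other settings tried, the difference stayed past the threshold, between -0.94 and -0.77.

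At 24 h, Il33 was 9.99, 9.51, 9.95, 9.87 and 9.53 in exposed mice and 9.75, 10.66, 10.40, 10.44 and 10.07 in sham mice. The groups overlapped through the 1 sham mouse at 9.75, and the difference of -0.49 (SE 0.19) missed the threshold with an adjusted p of 0.058. Without that mouse it was -0.62 with an adjusted p of 0.021, and it passed in 5 of the 21 alternatives in all. Differences were 0.27 and 0.26 at the earlier times and -0.04 and -0.15 at the later ones, with groups that overlapped. The effect at 48 h minus that at 0 h was -1.13 (SE 0.28, adjusted p = 0.037, limma interaction), beside 0.11% of all genes called lower in that contrast. This comparison rests on the 0 h arrays too, and of 45 such tests over the 9 genes it was the only one past the threshold. Leaving out any 1 of 10 of the 20 arrays ended the call. At 0 h these were sham arrays 2, 3 and 4 and exposed arrays 2, 4 and 5, and at 48 h they were sham arrays 1 and 5 and exposed arrays 4 and 5. The call also ended with every probe set kept in the test. Over all genes and in the order of the 5 later times, 0.885, 1.18, 0.61, 0.022 and 0.044% were called in this contrast.

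At 48 h the arms lay at opposite ends of the Il33 means. The sham mean at 48 h, 10.42 ± 0.19 (SD, n = 5), was the highest of the 12 groups, and the exposed mean, 9.57 ± 0.27, the lowest. Against the other 5 groups of their own arm, the sham group was 0.39 higher (adjusted p = 0.109) and the exposed group differed by -0.44 (adjusted p = 0.335, limma), neither past the threshold. Of 11 measured markers of alveolar type 2 cells, 1 was lower at 48 h and none higher, beside 1.89 and 10.7% of all genes. This was Cxcl15, a lung epithelial chemokine, at -0.32 (adjusted p = 0.0099). In the other direction Sftpd differed most, by 0.19 (adjusted p = 0.057), and the median difference of the list was -0.00067. The summed level of the list, as log2 of the sum of the unlogged values and so led by its brightest genes, was 16.98 to 17.03 in exposed and 16.95 to 17.04 in sham mice. The part of these cells in the Il33 result was not tested.

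The genes whose pattern over the 60 arrays was most like that of Il33 followed it loosely. They were Rrs1, a ribosome assembly factor, at a Pearson r of 0.62, Azin1, an antizyme inhibitor, at 0.62, and Gja1, the gap junction protein connexin 43, at 0.61. After removal of the group means r was 0.54, 0.55 and 0.51. At 48 h Azin1 was lower (-0.26, adjusted p = 0.037), and Rrs1 (-0.26, adjusted p = 0.076) and Gja1 (-0.40, adjusted p = 0.057) did not pass.

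Il1r2, the decoy receptor, had the largest difference and the largest spread. At 24 h its values were 9.01, 6.46, 8.80, 7.64 and 9.48 in exposed mice and 7.17, 5.24, 6.50, 7.50 and 7.68 in sham mice. Exposed arrays 1, 3 and 5 lay above all sham arrays, and array 2 lay below 4 of them. The difference was 1.46 (SE 0.55, 95% confidence interval 0.35 to 2.57, n = 5 per group), or 2.75-fold higher, with an adjusted p of 0.048. This call depended on the settings. It held under 6 of the 21 alternatives, with adjusted p values from 0.014 to 0.349. It was lost when any 1 of sham arrays 1, 2 and 3 or exposed arrays 1, 3 and 5 was left out, and the difference was 1.06 (adjusted p = 0.169) without sham array 2, the array at 5.24. Without the 2 arrays that stood apart it was 1.33 (adjusted p = 0.096).

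At 48 h, Il1r2 was 8.22, 9.49, 8.67, 8.44 and 9.33 in exposed mice and 6.78, 8.02, 6.73, 9.44 and 7.36 in sham mice. Sham array 4 lay among the exposed arrays and the other 4 below them. The difference of 1.16 (SE 0.55) did not pass (adjusted p = 0.167), and without sham array 4 it was 1.61 (adjusted p = 0.043).

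Il1r2 also moved with time in both arms, and at 0 h its difference pointed the other way. The sham mean at 0 h, 8.90 ± 1.10 (SD, n = 5), was 1.53 above the other 5 sham groups (SE 0.43, adjusted p = 0.015), beside 5.79% of all genes called higher there. The exposed mean at 6 h, 6.37 ± 0.34, differed from the other 5 exposed groups by -1.63 (SE 0.43, adjusted p = 0.016), beside 2.12% called lower. At 0 h the exposed mice were at 7.84, 7.52, 7.41, 7.37 and 9.22 and the sham mice at 7.63, 10.39, 9.44, 8.97 and 8.06. The groups overlapped, and the difference of -1.02 (SE 0.55) had an adjusted p of 0.330. The change in effect from 0 to 24 h was 2.48 (SE 0.78, adjusted p = 0.083), not past the threshold.

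**Figure D2:**
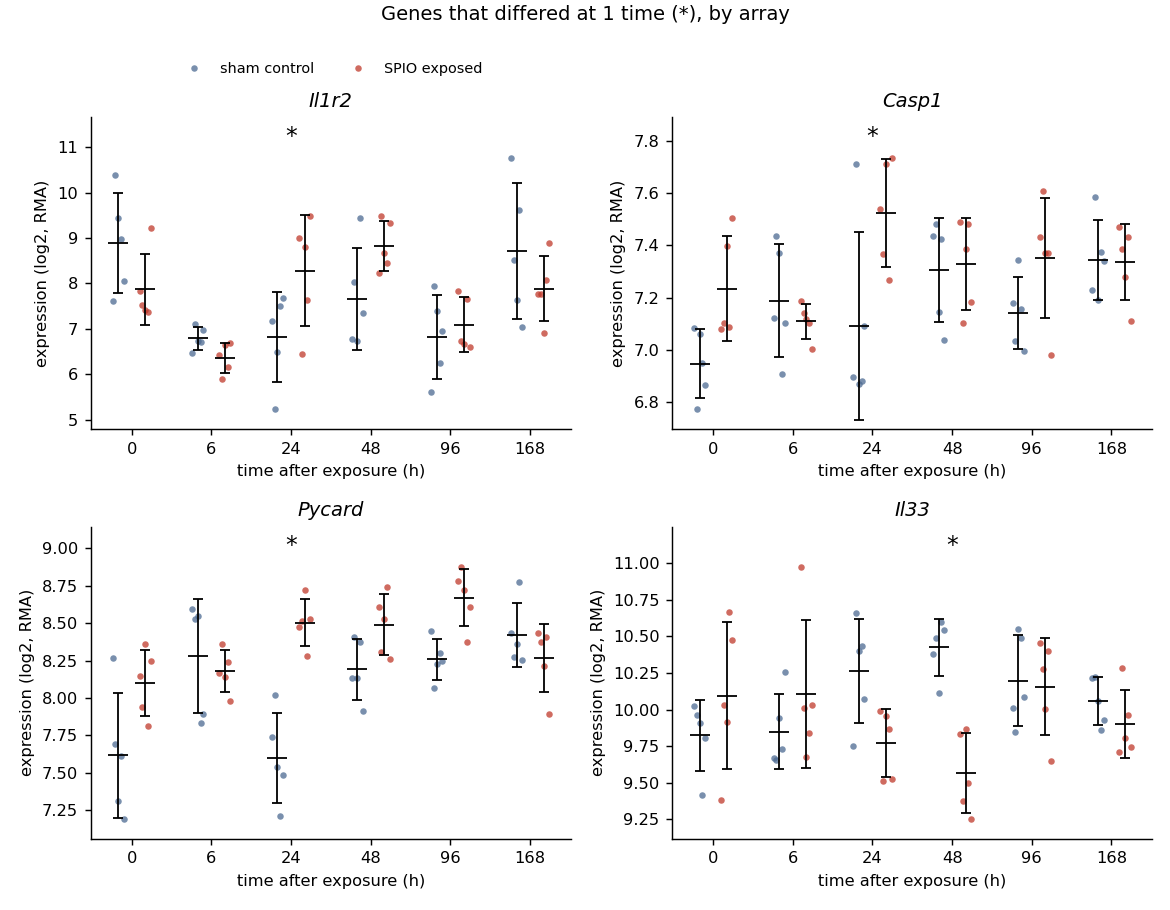
Log2 expression (y axis) of Il1r2, Casp1, Pycard and Il33 on each array at 6 times (x axis), with sham mice in blue and exposed mice in red. Long dashes and bars are the mean and SD of 5 mice and asterisks mark an adjusted p under 0.05. The groups do not overlap for Pycard at 24 h and for Il33 at 48 h, whereas those of Il1r2 and Casp1 at 24 h do.

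The level of Il1r2 followed that of some neutrophil genes from array to array. The 3 genes most like it over the 60 arrays were Mmp8, the neutrophil collagenase, at r = 0.94, Olfm4, a granule protein of a neutrophil subset, at 0.89, and Ccr1, a chemokine receptor of neutrophils and monocytes, at 0.88. Within groups r was still 0.89, 0.86 and 0.86. These values describe shared lobes and arrays for genes picked by their likeness, and have no test. Correlations with the other neutrophil markers are not given here. At 0 h the measured neutrophil markers had a median difference of -0.22, with Mmp8 at -1.46 and Ngp at 0.98. Mmp8 was higher in exposed mice at 24 h (1.70, adjusted p = 0.027) and at 48 h (1.67, adjusted p = 0.048).

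Of 14 measured neutrophil markers, 2 were higher at 24 h, Mmp8 and Trem3, and 2 at 48 h, Mmp8 and Ngp, beside 20.3 and 10.7% of all genes called higher at these times. The alarmin genes S100a8 and S100a9 differed by 0.86 and 0.97 at 24 h and did not pass (adjusted p = 0.097 and 0.068). The summed level of the neutrophil list was 13.18 to 15.25 in exposed and 12.07 to 14.58 in sham mice at 24 h, and 14.67 to 15.15 against 13.49 to 14.89 at 48 h. Their part in the Il1r2 result was not tested.

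**Figure D3:**
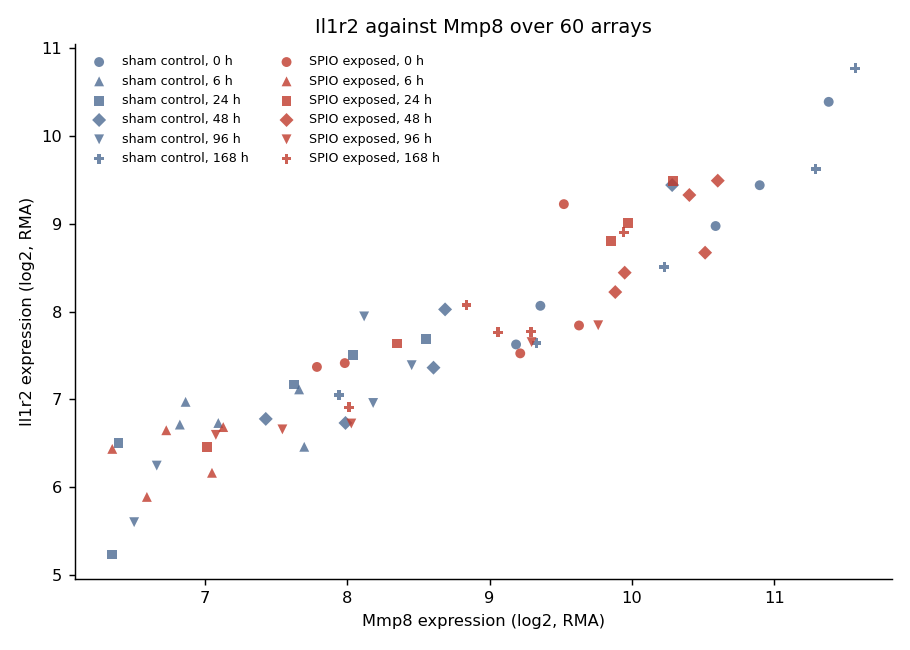
Log2 expression of Il1r2 (y axis) against Mmp8 (x axis) on 60 arrays, with sham mice in blue, exposed mice in red and a symbol for each time. The points of both arms lie along a common line (r = 0.94), from a 24 h sham array at the low end to a 168 h sham array at the high end.

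Pycard, the adaptor ASC, had the smallest p of the 54 comparisons. At 24 h it was 8.47, 8.52, 8.72, 8.28 and 8.53 in exposed mice and 7.74, 8.02, 7.54, 7.21 and 7.49 in sham mice. All exposed mice lay above all sham mice, and 11.4% of all genes had groups that did not overlap at 24 h. The difference was 0.90 (SE 0.15, 95% confidence interval 0.60 to 1.21, n = 5 per group, adjusted p = 4.75e-05, limma), or 1.87-fold higher. It passed under all 21 alternatives.

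The size of the Pycard difference depended on the probe set. With the mean of its 3 probe sets it was 0.28 (adjusted p = 0.015). The other 2 probe sets were dim, with means of 3.64 and 3.08 over all arrays. At 24 h they differed by -0.23 (SE 0.15) and 0.17 (SE 0.09), with adjusted p values of 0.306 and 0.221.

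The sham group was the one that stood apart. Its Pycard mean at 24 h, 7.60 ± 0.30 (SD, n = 5), was the lowest of the 12 groups and differed from the other 5 sham groups by -0.55 (SE 0.12, adjusted p = 5.74e-04), beside 21.3% of all genes called lower in that group. The exposed mean at 24 h, 8.50 ± 0.16, was 0.16 above the other exposed groups (SE 0.12, adjusted p = 0.796), beside 0.0824% called higher. In either direction, 28.7% of all genes set the 24 h sham group apart from the other sham groups, and 0.126% the 24 h exposed group from the other exposed groups. Sham mice were also low at 0 h, by -0.53 (SE 0.12, adjusted p = 0.0021, beside 4.22% called lower), and high at 168 h, by 0.43 (SE 0.12, adjusted p = 0.025, beside 4.63% called higher). No exposed group stood apart for Pycard.

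At 0 h, Pycard was 8.14, 7.94, 8.36, 7.81 and 8.25 in exposed mice and 8.27, 7.69, 7.32, 7.61 and 7.19 in sham mice. Sham array 1, the array with high Alb and Xist, was the only sham array inside the exposed range. The difference of 0.48 (SE 0.15) had an adjusted p of 0.063, and without that array it was 0.65 with an adjusted p of 0.0068. Pycard differed by -0.10 at 6 h, and from 48 h on by 0.30, 0.41 and -0.15. At 96 h the unadjusted p was 0.0096 and the adjusted p 0.177.

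Casp1, the protease that cuts IL-1β and IL-18, was 7.54, 7.37, 7.71, 7.27 and 7.74 in exposed mice at 24 h and 6.90, 7.71, 6.87, 6.88 and 7.09 in sham mice. Of the sham mice, 4 lay below all exposed mice and sham array 2 among them. The difference was 0.43 (SE 0.12, 95% confidence interval 0.19 to 0.68, adjusted p = 0.0078), or 1.35-fold higher. It passed under 20 of the 21 alternatives and missed the threshold with the 10 arrays of 24 h fitted alone (adjusted p = 0.090). Neither the exposed nor the sham group at 24 h stood apart from the rest of its arm, at 0.25 (adjusted p = 0.395) and -0.10 (adjusted p = 0.473). At 0 h Casp1 differed by 0.29 (SE 0.12, adjusted p = 0.192) and at the 4 other times by -0.08 to 0.21.

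Casp1 and Pycard varied together over the arrays, with r = 0.69 and, within groups, 0.60. Most like Pycard were Ly86, a partner of a Toll-like receptor homologue on myeloid and B cells (r = 0.90), the phosphatase gene Ptpro (0.85) and Evi2a (0.85). Most like Casp1 were Clec4a3, a lectin of monocytes and dendritic cells (0.80), Tifab (0.80) and Evi2a (0.78). Within groups r was 0.76, 0.64 and 0.73 with Pycard and 0.80, 0.77 and 0.68 with Casp1, in the same order. These genes were picked by their likeness over the same arrays, and the correlations have no test. All 5 of these genes were higher in exposed mice at 24 h, by 0.76 to 1.13, when 20.3% of all genes were called higher. Given how they were picked, this adds no separate support. At other times Ly86 was higher at 0 h (0.65, adjusted p = 0.020) and 96 h (0.76, adjusted p = 0.0099) and Ptpro at 0 h (0.67, adjusted p = 0.039), and none of the others passed.

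At 24 h, when 20.3% of all genes were called higher, some markers of monocytes, macrophages and lymphocytes were higher too. Of 11 measured monocyte markers, 7 were higher, among them F13a1 at 1.65 and Ccr2 at 1.41, and 1 at 48 h, when 10.7% of all genes were. Their summed level at 24 h was 13.03 to 13.80 in exposed and 12.73 to 13.27 in sham mice. Of 17 measured macrophage markers, 6 were higher at 24 h, among them Cd68 at 0.73, and 3 at 48 h, among them Marco at 0.77. The summed level of the exposed mice at 24 h, 13.54 to 13.88, lay within that of the sham mice, 13.16 to 14.08. The brightest genes led this sum, among them Fabp4, also listed as an adipose marker, at 6.97 to 13.44 over all arrays. Of 12 lymphocyte markers 5 were higher at 24 h, with a summed level of 10.79 to 11.70 against 10.66 to 11.22. At 0 h, beside 2.56% of all genes, 6 of the lymphocyte and 2 of the monocyte markers were higher and 1 monocyte marker lower. The part of these cells in the Pycard and Casp1 results was not tested.

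Nlrp3, the sensor, had no difference past the threshold. Its group means lay between 5.85 and 6.18 in sham and 5.92 and 6.14 in exposed mice, and its differences between -0.11 and 0.12, all with SE 0.13 and adjusted p values of 0.636 or more. At 24 h it was 6.13, 5.87, 6.28, 5.65 and 6.63 in exposed mice and 6.38, 5.58, 6.04, 6.24 and 6.35 in sham mice, which covered nearly the same range. The 95% confidence interval of that difference, -0.27 to 0.26, reached about as far above 0 as below it.

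Il1b, the secreted cytokine, differed between times and not, past the threshold, between treatments. Its 6 h means were the lowest of each arm, 8.56 ± 0.18 (SD, n = 5) in exposed and 8.63 ± 0.47 in sham mice. They differed from the other 5 groups of their arm by -0.89 and -0.81 (SE 0.24, adjusted p = 0.018 and 0.025), beside 2.12 and 2.36% of all genes called lower in these contrasts. At 6 h itself exposed and sham mice differed by -0.07 (SE 0.31, adjusted p = 0.973).

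Between exposed and sham mice, Il1b was 9.26, 9.12, 8.52, 8.54 and 9.57 against 9.15, 10.13, 10.02, 9.79 and 9.37 at 0 h. The groups overlapped, with 3 sham mice above all exposed mice, and the difference of -0.69 (SE 0.31) had an adjusted p of 0.213. At 24 h the values were 10.37, 8.86, 10.15, 9.38 and 10.46 against 9.89, 7.72, 8.69, 9.77 and 10.09, a difference of 0.61 (SE 0.31, adjusted p = 0.145). Mice of a group were most spread at 24 h in both arms, with an SD of 0.69 in exposed mice and a larger one in sham mice. Over the arrays Il1b moved with Il1r2 (r = 0.69) and Nlrp3 (0.66), and much less with Pycard (0.06) and Il18 (0.01).

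Il1a, the IL-1 form that is active as a precursor, was 6.89, 7.17, 6.94, 7.10 and 6.91 in exposed mice at 6 h and 6.52, 6.73, 6.98, 6.65 and 6.65 in sham mice. All sham mice but array 3 lay below the exposed mice. The difference of 0.30 (SE 0.12) had an unadjusted p of 0.018 and an adjusted p of 0.270. At the other times it lay between -0.16 and 0.21.

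Il18 did not overlap at 48 h, at 9.92, 9.81, 9.97, 10.24 and 10.12 in exposed and 9.78, 9.47, 9.68, 9.45 and 9.72 in sham mice. The difference of 0.39 (SE 0.16, unadjusted p = 0.020) did not pass after adjustment (adjusted p = 0.103). It passed in 1 of 21 alternatives, with the 10 arrays of 48 h fitted alone (adjusted p = 0.046). At 6 h the difference was -0.30 (SE 0.16, adjusted p = 0.493), and at the remaining 4 times between -0.03 and 0.20.

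Il1rn, the antagonist, differed by -0.19 to 0.23 between exposed and sham mice, with SE 0.19 and adjusted p values of 0.401 or more. The sham mice at 168 h, at 7.18, 7.43, 6.86, 7.52 and 6.62, were 0.46 above the other sham groups (SE 0.14, adjusted p = 0.049), beside 4.63% of all genes called higher there. The exposed mice at 168 h, at 7.36, 7.04, 6.84, 7.19 and 7.18, had the same mean of 7.12. Its other 2 probe sets gave no difference past the threshold at any time. The largest was -0.47 at 168 h (SE 0.16, adjusted p = 0.083), at which time the main probe set gave -0.0036.

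**Figure D4:**
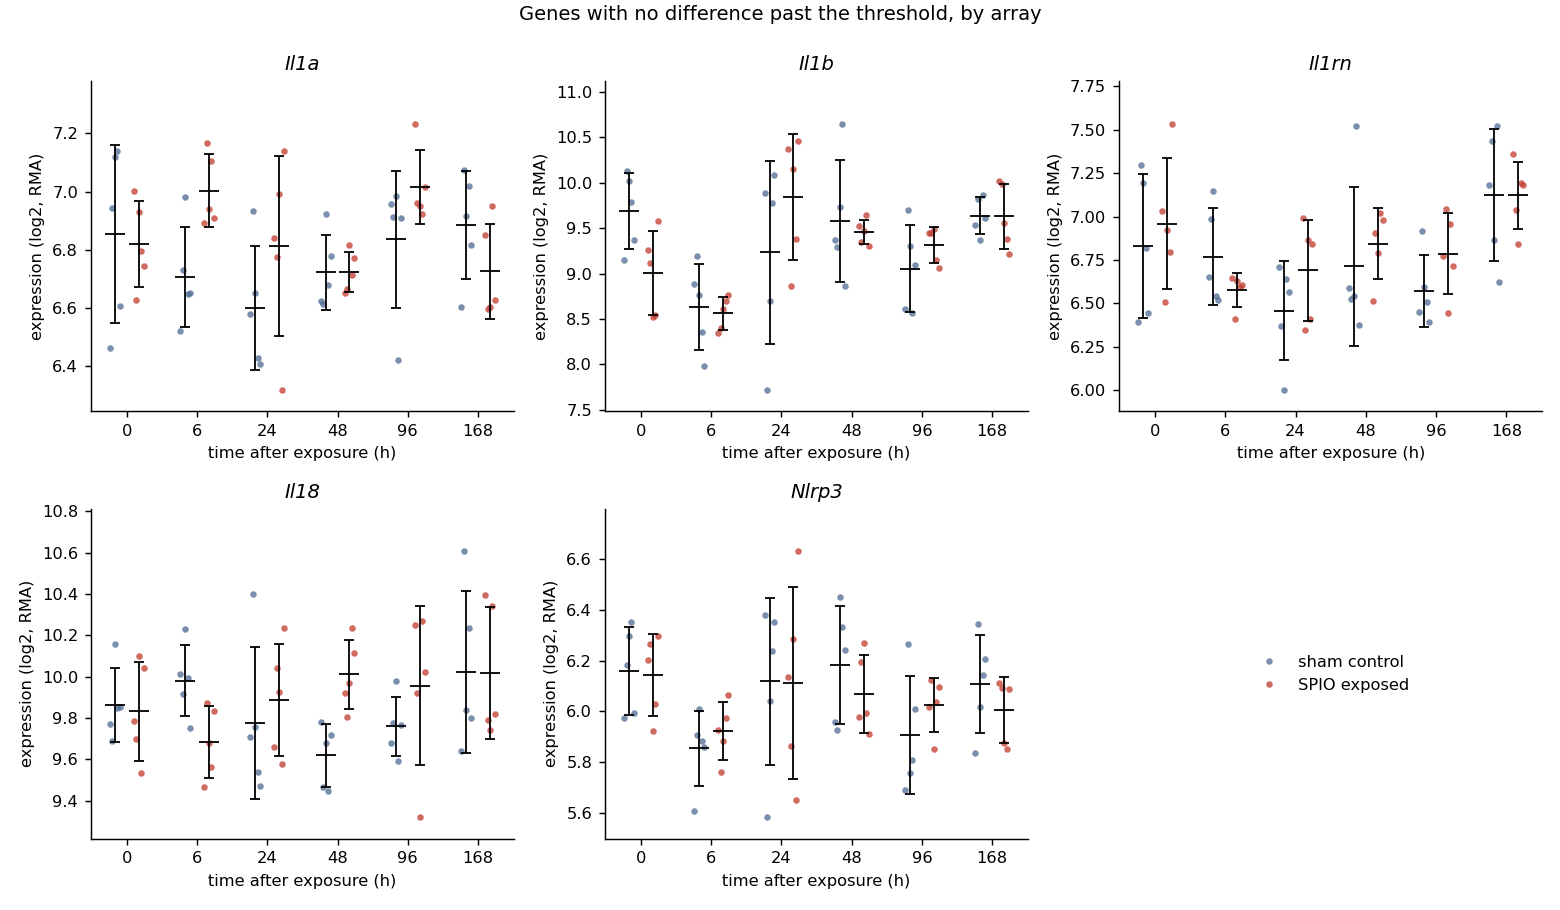
Log2 expression (y axis) of Il1a, Il1b, Il1rn, Il18 and Nlrp3 on each array at 6 times (x axis), with sham mice in blue, exposed mice in red, and the mean and SD of 5 mice in black. Exposed and sham mice overlap in all panels except for Il18 at 48 h, and Il1b is lowest at 6 h in both arms.

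Across the 12 groups, neighbouring means were not set apart for any of the 9 genes. When the groups of a gene were ordered by their means, all 11 pairs of neighbours overlapped in their arrays for every gene. Such ordering places like groups side by side, so this overlap does not show whether groups differ. Groups further apart in this order could still be separate, as were Il33 and Il18 at 48 h and Pycard at 24 h between exposed and sham mice. The gap between neighbours was under the larger of their SDs in all 11 pairs for 7 genes and in 10 for Il1r2 and Pycard. In all, 8 of the 108 contrasts of a group with the rest of its arm passed, 6 in sham and 2 in exposed mice. The share of all genes called in these contrasts was itself uneven between arms. At 24 h it was 28.7% in sham and 0.126% in exposed mice, so the split is not particular to the 9 genes.

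Other genes of the pathway had differences at every time. Of 85 genes listed as other family members, signalling genes, inflammasome genes and genes known to be induced by IL-1 or IL-33, 76 were measured. At 0, 6, 24, 48, 96 and 168 h, 9, 8, 27, 11, 2 and 1 of them were higher and 1, 0, 1, 1, 1 and 0 lower. Over all genes 2.56, 0.759, 20.3, 10.7, 0.522 and 0.566% were called higher at these times. The median difference of the 76 genes was 0.13, 0.06, 0.23 and 0.12 at the first 4 times, 0.13 at 96 h and slightly below 0 at 168 h.

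Of the 21 measured genes known to be induced by IL-1 or IL-33, 3 passed at 0 h and 6 at 6 h, all of them higher in exposed mice. Among all genes, 2.56 and 0.759% were called higher at these times. Cxcl1, a neutrophil chemokine, was higher by 1.87 (SE 0.29, adjusted p = 9.56e-05) at 0 h and by 2.38 at 6 h. Cxcl2, its close relative, was higher by 1.48 and 1.68 (SE 0.30). The growth factor gene Csf2 was higher by 0.94 and Lcn2, an iron-binding acute phase protein, by 1.39 at 6 h. At that time Ccl17, a chemokine of type 2 responses, was higher by 0.94 and the monocyte chemokine gene Ccl2 by 0.41. Il1a and Il1b themselves did not pass at these times.

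Later, 4 of the 21 genes were higher at 24 h, 2 at 48 h and 1 at 96 h. Of all genes 20.3, 10.7 and 0.522% were called higher at these times. The median difference of the 21 genes at 24 h was 0.07, against 0.09 over all genes. Saa3, an acute phase protein, was higher by 1.20 (SE 0.44) at 24 h and by 1.93 at 48 h, and Lcn2 by 0.82 and 0.68. Ccl17 was higher by 0.71 at 24 h, and Ccl24, an eosinophil chemokine, by 0.50 at 0 h and 0.66 at 96 h. Ifng was called higher at 24 h (0.30) at a low level of 3.38 against 3.09. Ccl2 was lower at 48 h (-0.34), the only gene of this list called lower at any time.

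Among the other receptors and ligands, 2 of 14 were higher at 24 h and again at 48 h, beside 20.3 and 10.7% of all genes. Il1rap, the accessory chain shared by the receptors of IL-1 and IL-33, was higher by 0.51 (SE 0.12, adjusted p = 0.0021) and 0.62 (adjusted p = 6.46e-04). Its groups did not overlap at either time, as for 11.4 and 7.68% of all genes. Sigirr, an inhibitory receptor of the family, was higher by 0.35 and 0.26. Il18r1, a chain of the IL-18 receptor, was lower at 96 h (-0.51, SE 0.13, adjusted p = 0.028).

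Of 19 measured signalling genes, 3 were higher and 1 lower at 0 h, and 1 was higher at 6 h. At 24 h 10 were higher and 1 lower, and at 48 h 4 were higher. Among all genes, 2.56, 0.759, 20.3 and 10.7% were called higher at these times. The NF-kB subunit gene Rela was higher by 0.33 (SE 0.06) at 0 h, 0.19 at 24 h and 0.21 at 48 h, and Nfkbiz, an inducible cofactor of NF-kB, by 0.50 at 0 h and 0.52 at 6 h. Tab1, an adaptor of the kinase encoded by Map3k7, was higher by 0.30 at 0 h and 0.31 at 24 h. Irak1, a kinase associated with the IL-1 receptor, was lower (-0.22) at 0 h. At 24 h the inhibitors Tollip and Irak3 were higher by 0.38 (SE 0.06) and 0.50 (SE 0.12), and Map3k7 by 0.36. At 48 h Tollip (0.27), Map3k7 (0.31) and Tab3 (0.37) were higher, as they had been at 24 h.

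Of 22 other inflammasome genes, 3, 1, 11, 3, 1 and 1 were higher at the 6 times and none lower. The shares of all genes called higher were 2.56, 0.759, 20.3, 10.7, 0.522 and 0.566%. P2rx7, the ATP-gated channel that triggers NLRP3, was higher at all 6 times, by 0.52, 0.62, 0.60, 0.52, 0.49 and 0.52 (SE 0.12). Its groups did not overlap at 24 and 48 h, when those of 11.4 and 7.68% of all genes did not. Casp4 and Casp8, caspases of cell death, rose by 0.49 and 0.38 at 0 h, with differences of 0.60 and 0.30 at 24 h that also passed. At 24 h Gsdmd, the pore protein cut by inflammatory caspases, was higher by 0.45, the pyrin partner Pstpip1 by 0.81 and the lysosomal protease Ctsb by 0.34. Gsdmd (0.34) and Nek7 (0.29), an NLRP3-binding kinase, were higher at 48 h.

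**Figure D5:**
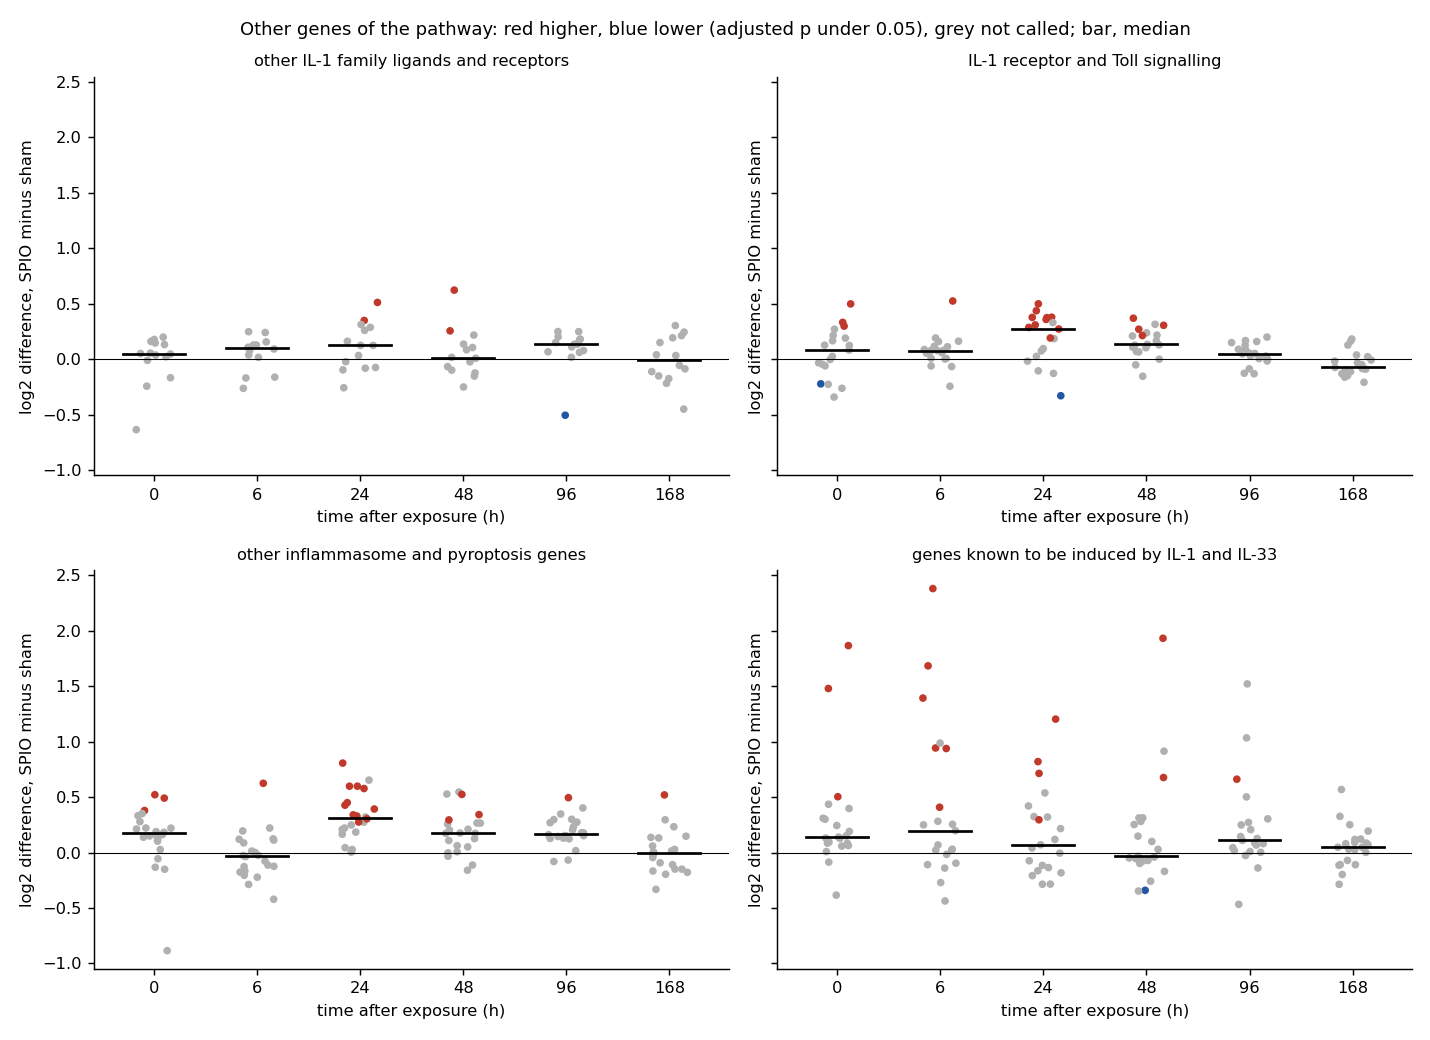
Log2 difference between exposed and sham mice (y axis) at 6 times (x axis) for the measured genes of 4 lists, 14, 19, 22 and 21 genes. Red points are higher and blue points lower at an adjusted p under 0.05, grey points did not pass, and bars are medians. The widest differences are those of induced genes, Cxcl1 (2.38 at 6 h and 1.87 at 0 h) and Saa3 (1.93 at 48 h), and the most calls fall at 24 h.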

How the data were processed

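The authors hybridised RNA of each lung lobe to an Affymetrix mouse genome array, and deposited log2 values of 45101 probe sets made by RMA, of which no version was found in the labels or the methods. The 64 control probe sets were left out. Probe sets with 1 gene symbol (34945) gave 18193 genes, each by its probe set of highest mean; those with several symbols (932) or none (9160) entered the alternative with all probe sets. The 12 groups of 5 arrays were fitted in 1 model with limma 3.58.1 in R 4.3.3 on 48 residual degrees of freedom. P values were adjusted by Benjamini and Hochberg's method over all genes, with a threshold of 0.05. Intervals are at 95%. The fit was tested on simulated data. The number of arrays limits the precision.

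The members, the gene lists, the tests and the rule for named genes (the members, and up to 4 called genes per pathway list and time by p) were chosen with earlier results of these data known. Markers outside this rule were named after their values were seen. Other genes were matched by symbol or synonym through RefSeq. Promoter windows came from RefSeq (GRCm38.p6), and figures from Python and matplotlib. Alternatives changed the features (every probe set, averages over the probe sets of a gene, or genes reaching 6 on 5 or more arrays), the scaling (repeated quantile normalization, arrays centred on medians), the model (each time fitted by itself, moderation with trend and robust options, weighted arrays, replicate number as a block) or the test (the methods' one-way analysis with unequal variances and Tukey comparisons), or left out arrays.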

Additional observations from a re-analysis of the deposited data

Results flagged for a closer look

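In 6 of 108 groups of 5 arrays the highest or lowest value of a gene stood apart from the other 4 by Dixon's test (critical value 0.71), where chance alone marks about 1 group in 20. Il1a was lowest on array 4 of the 96 h sham mice, at 6.42, with the next at 6.91. Il1rn was lowest on array 2 of the 6 h exposed mice, at 6.41, and highest on array 4 of the 48 h sham mice, at 7.52. The latter mouse was also the highest of its group for Il1b (10.65) and Il1r2 (9.44). Il1r2 was highest on array 5 of the 0 h exposed mice, at 9.22, with the next at 7.84. Il33 was highest on array 1 of the 6 h exposed mice, at 10.97, with the next at 10.03. Casp1 was highest on array 2 of the 24 h sham mice, at 7.71, with the next at 7.09, and the same mouse was lowest of its group for Il1r2 (5.24) and Il1b (7.72).

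Among 45 tests of a later effect against that at 0 h, 1 passed. The Il33 effect at 48 h minus that at 0 h was -1.13 (adjusted p = 0.037, limma interaction).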

How the results depend on the processing

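Pycard at 24 h and Il33 at 48 h passed in 21 of 21 alternatives each, Casp1 at 24 h in 20 and Il1r2 at 24 h in 6. No scaling moved the median difference of all genes by 0.1. At 0 h, where no member passed in the main analysis, 2 passed with array weights, and Pycard alone (1) passed with the filter on low values, with quantile normalization again and without the 2 arrays that stood apart. At 24 h (3 in the main analysis) 1 passed with the time fitted alone. At 48 h (1) 3 passed with array weights and 2 with the time fitted alone. With each array left out the counts ran from 0 to 1 at 0 h, 2 to 4 at 24 h and 1 to 2 at 48 h, and were 0 at the other times. Array 1 of the 0 h sham mice and array 4 of the 0 h exposed mice each kept Pycard from passing at 0 h, and sham array 4 kept Il1r2 from passing at 48 h. At 24 h, Il1a passed without exposed array 4, Il1b without exposed array 2, and Il33 without exposed or sham array 1. Il33 at 24 h also passed with array weights, the filter on low values and quantile normalization, 5 of 21 alternatives in all.

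Replicate numbers are shared by the groups but name separate mice. Deviations of arrays with the same number correlated between -0.51 and 0.47, over 0.1 in 7 of 30 pairs, so the numbers do not pair the mice. With the replicate block the members called at 0 h went from 0 to 1, Pycard (adjusted p = 0.040), and Il1r2 at 24 h was lost (adjusted p = 0.054).

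Of the effects against 0 h, array weights gave 1 call at 6 h, 2 at 24 h and 2 at 48 h, against 0, 0 and 1. All probe sets gave 0 at 48 h, and leaving out the 2 arrays gave 1 at 6 h. With each array left out the counts ran from 0 to 1 at 6, 24 and 48 h. The contrasts within an arm went from 8 to 14 calls with array weights.

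The other pathway genes called at 0 h (10) were 16 with array weights and 0 with the time fitted alone. At 24 h (28) they were 17 with the time alone and 15 by the methods' test. At 48 h (12) they were 25 with array weights, 6 with the time alone and 7 by the methods' test. At 96 h (3) they were 1 with the time alone and 6 with the mean of probe sets, and at 168 h (1) 0 with the time alone and 2 each with the mean of probe sets and quantile normalization. Leaving out an array gave 4 to 11 at 0 h, 1 to 3 at 96 h and 0 to 2 at 168 h. The cause was not tested.

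Of 54 differences between exposed and sham mice, 17 changed sign in some alternative, none of them past the threshold in the main analysis. Of these, Pycard at 48 h passed with array weights (0.38, adjusted p = 0.039). Array weights gave 0.0079 for Il18 at 0 h, 0.048 and 0.015 for Il1b at 168 and 48 h and 0.0040 for Il1rn at 168 h. Quantile normalization gave 0.075 and -0.066 for Casp1 at 168 and 48 h, 0.016 and 0.063 for Il18 at 0 and 168 h, -0.085 for Il1a at 48 h, and 0.068 for Il1b and 0.072 for Il1rn at 168 h. Median-centring gave -0.010 for Il1a at 48 h. The mean of probe sets gave -0.049 and 0.00096 for Pycard at 48 and 6 h. With each array left out, Casp1 ran from -0.046 to 0.053 at 168 h and -0.045 to 0.079 at 48 h, Il18 from -0.099 to 0.043 at 0 h and -0.10 to 0.14 at 168 h, and Il1a from -0.13 to 0.038 at 0 h and -0.027 to 0.050 at 48 h. Il1b ran from -0.10 to 0.097 at 168 h, -0.31 to 0.14 at 48 h and -0.24 to 0.069 at 6 h, Il1r2 from -0.040 to 0.55 at 96 h, and Il1rn from -0.017 to 0.24 at 0 h and -0.13 to 0.095 at 168 h. Il33 ran from -0.13 to 0.086 at 96 h and Nlrp3 from -0.062 to 0.039 at 0 h and -0.14 to 0.11 at 24 h.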
